A study of Homo sapiens with 8 samples.

Results

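The endoplasmic reticulum (ER) is where secreted and membrane proteins are folded, and 10 genes that encode the chaperones and disulfide isomerases of that compartment are described here in Kyse510 cells, an established human esophageal squamous cell carcinoma (ESCC) line. The genes were taken by name as HSPA5, HSP90B1, CALR, CANX, PDIA4, PDIA6, SDF2L1, DNAJB11, HYOU1 and CRELD2, and all 10 were found among the 26360 genes listed in both deposited tables. CANX is anchored in the ER membrane with its folding domain in the lumen, whereas the other members are soluble or reside largely in the lumen. RNA was sequenced in 8 libraries, 1 per condition. Kyse510 cells received vehicle (DMSO-con), 7 µM SP2509, an inhibitor of the histone demethylase LSD1, 7 µM UNC0642, an inhibitor of the histone methyltransferase G9a, or the combination of both (SP+UNC, with no dose of its own stated) for 2 days. In the knockdown arm, Kyse510 cells with a doxycycline (Dox)-inducible hairpin against LSD1 (sh-LSD1) or G9a (sh-G9a) were selected in puromycin for 14 days, and each line was then sequenced without Dox or after 2 days with Dox. Each treated library was compared with vehicle or with the same line without Dox. No library of Dox alone or of a nonsilencing hairpin was analysed here, so an effect of Dox and an effect of the hairpin cannot be told apart, and each line carries a single hairpin. The sample labels call the vehicle library untreated, while the description of the series calls it vehicle.

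Proteins that enter the ER are bound by the HSP70-type chaperone encoded by HSPA5 (BiP), which works with J-domain cofactors such as DNAJB11 and with the nucleotide exchange factor HYOU1. HSP90B1 (GRP94) is the HSP90-type chaperone of the compartment, CALR and CANX bind glycoproteins by their sugar chains, and PDIA4 and PDIA6 form and rearrange disulfide bonds. When unfolded proteins build up, the sensors IRE1, PERK and ATF6 start the unfolded protein response (UPR), which raises transcription of most of these genes through the factors ATF6 and XBP1. The ER stress response element (ERSE), a CCAAT box and a CCACG sequence set 9 bases apart, is the best known DNA element of that response.

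The promoters are shown because the elements that the UPR uses can be read in them directly. Sequence came from the RefSeq promoters of GRCh38.p14, in which all 10 genes were found, and the 250 bases before each start were searched on both strands for ERSE (CCAAT, 9 bases of any kind, CCACG), for ERSE-II (ATTGG, 1 base of any kind, CCACG) and for the UPR element TGACGTGG, whose last bases are the reverse complement of CCACG and can overlap the other elements. ERSE was found in 5 of the 10 genes, against 22 of all 27305 promoters (0.0806%) and 14 of the 13178 promoters of genes listed in both tables (0.106%). The counts over all promoters here include the members themselves, and enrichment was not tested. ERSE-II was found in SDF2L1 and HYOU1, against 14 of 27305 promoters (0.0513%), and the UPR element in HYOU1 alone of the members, against 182 of 27305 (0.666%). Each match is printed 5′ to 3′ on the strand where it reads in this orientation, with the fixed parts in capitals:
HSPA5 ERSE: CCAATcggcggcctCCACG
HSP90B1 ERSE, distal: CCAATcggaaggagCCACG
HSP90B1 ERSE, proximal: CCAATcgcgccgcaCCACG
CALR ERSE: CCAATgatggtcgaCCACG
CANX ERSE: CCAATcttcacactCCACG
CRELD2 ERSE: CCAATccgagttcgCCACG
SDF2L1 ERSE-II: ATTGGtCCACG
HYOU1 ERSE-II, both copies: ATTGGaCCACG

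The HSPA5 match lay at chr9:125241391-125241409 on the minus strand, 66 to 48 bases before the start. Those of HSP90B1 lay at chr12:103930216-103930234 and, on the minus strand, chr12:103930321-103930339. CALR held its match at chr19:12938384-12938402 on the minus strand, CANX at chr5:179698778-179698796 and CRELD2 at chr22:49918554-49918572 on the minus strand. The ERSE-II of SDF2L1 was at chr22:21642114-21642124 on the minus strand, and those of HYOU1 at chr11:119057274-119057284 and chr11:119057380-119057390 on the plus strand. Thus 7 of the 10 genes held ERSE or ERSE-II, and PDIA4, PDIA6 and DNAJB11 held none of the searched sequences in this window. Among 49 other ER folding genes with a promoter in the table, ERO1B alone held ERSE and 0 held ERSE-II.

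The 250 bases before the HSPA5 start (chr9:125241344-125241593, minus strand) carry a single exact match to ERSE, shown in capitals near the end closest to the gene:
HSPA5 promoter: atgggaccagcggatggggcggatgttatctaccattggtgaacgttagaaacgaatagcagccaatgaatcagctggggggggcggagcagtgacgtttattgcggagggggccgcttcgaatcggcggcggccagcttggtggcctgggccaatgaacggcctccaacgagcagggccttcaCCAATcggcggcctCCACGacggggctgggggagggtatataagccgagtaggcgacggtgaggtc

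The 250 bases before the HYOU1 start (chr11:119057206-119057455, minus strand) carry both ERSE-II copies, here as their reverse complement, and the UPR element, which overlaps the distal copy. All 3 are in capitals:
HYOU1 promoter: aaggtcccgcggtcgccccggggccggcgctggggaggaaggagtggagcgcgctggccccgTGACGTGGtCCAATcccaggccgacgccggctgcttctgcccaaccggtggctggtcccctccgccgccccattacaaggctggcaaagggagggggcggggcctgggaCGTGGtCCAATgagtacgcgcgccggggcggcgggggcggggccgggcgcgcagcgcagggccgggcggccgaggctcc

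For 8 of the 10 genes, all but HSPA5 and HYOU1, the RefSeq start lay inside the gene boundaries that accompany the deposited values, so promoters upstream of other annotated starts of these genes were not searched. Only exact matches were counted, so copies of an element with a mismatch are not listed. A match is a description of the letters and not a measured binding site.

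Library totals recovered from the FPKM values (fragments of a gene relative to gene length and to library size) ranged from 15662035 to 17889466 fragments, and the 10 genes had between 91 and 100287 fragments per library. The hairpin targets were checked first. KDM1A, which encodes LSD1, was at 26.0 FPKM in the sh-LSD1 line without Dox and 6.29 with Dox, and EHMT2, which encodes G9a, was at 7.85 FPKM in the sh-G9a line without Dox and 4.76 with Dox. EHMT2 was also lower with the combination, which involves no hairpin, at 5.38 FPKM against 11.1 in vehicle. With SP2509 (10.2 FPKM) and UNC0642 (10.3 FPKM) alone it was near vehicle. The epithelial markers KRT5, TP63, EPCAM and CDH1 were expressed in all 8 libraries, KRT14 lay between 1.102 and 10.1 FPKM, KRT6A between 0.676 and 20.0, and the mesenchymal, immune and endothelial markers VIM, PTPRC and PECAM1 reached at most 0.569 FPKM, whereas COL1A1, another mesenchymal marker, lay between 2.92 and 5.36. Folds in the following are ratios of FPKM with an exact 95% interval from the fragments of the 2 libraries, which covers counting error only. A gene was called lower or higher when the ratio of (FPKM + 1) was at least 1.3 in that direction, among genes that reached 1 FPKM in either library. With 1 library per condition no spread between replicates exists, no test between conditions was possible, and "fell" and "rose" mean this call and nothing further. Fewer cells with a transcript and less of it per cell cannot be told apart in bulk RNA.

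All 10 genes were at a lower level in the treated library than in its control in all 5 comparisons, and 43 of the 50 ratios were past the call in the lower direction and 0 in the higher. With SP2509, 7 of the 10 fell, against a background of 39.9% of 13342 genes called lower and 21% called higher. With UNC0642, 8 fell, against 16.9% of 13244 genes lower and 18.2% higher. With the combination 8 fell, where 31.7% of 13907 genes were lower and 31.4% higher. With Dox all 10 fell in the sh-LSD1 line, against 12.3% of 12970 genes lower and 24.8% higher, and all 10 fell in the sh-G9a line, against 17.6% of 13080 lower and 32.9% higher. The share for SP2509 was therefore the nearest to its background of the 5. Its split depends on the scaling: with a trimmed mean of the log2 ratios set to 0, which shifts that comparison by -0.30, 24.9% of genes were lower and 34.1% higher, and 6 of the 10 fell, HSP90B1 no longer among them. The same scaling shifts the sh-LSD1 line by 0.14 (18.4% lower, 15.3% higher) and the sh-G9a line by 0.22 (26.9% lower, 17.3% higher), with all 10 lower in both. The median log2 ratio of the 10 was -1.49 with SP2509 (all genes -0.21), -1.12 with UNC0642 (all genes -0.01), -1.11 with the combination (all genes -0.02), -1.22 in the sh-LSD1 line (all genes 0.13) and -2.45 in the sh-G9a line (all genes 0.18). The counting interval of each of the 50 ratios lay below 1, with the library totals taken as the scale. With trimmed mean scaling the SP2509 log2 ratios were -0.07 for CALR, -0.08 for CANX and 0.0032 for PDIA6. These genes were thus about level there.

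**Figure D1:**
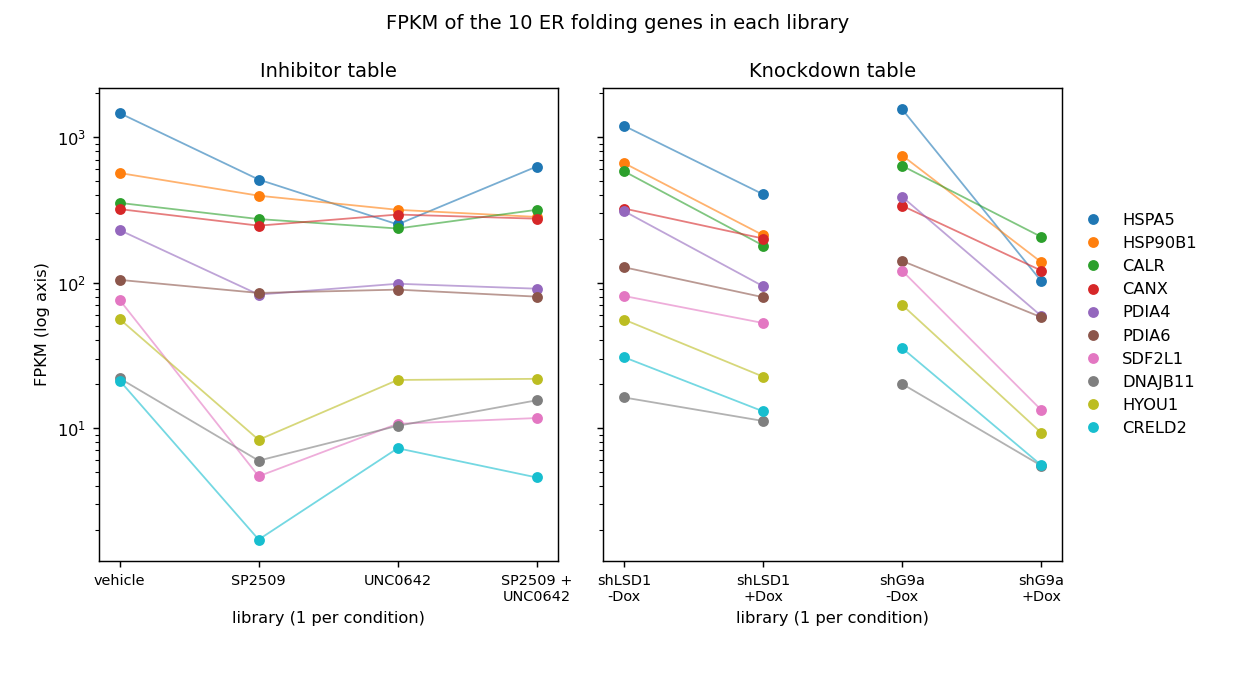
FPKM (log axis) of the 10 ER folding genes in each of the 8 libraries, 1 library per condition, with the inhibitor libraries on the left and the knockdown libraries on the right; lines join libraries that share a control or a line. HSPA5 was the highest of the 10 in 6 of the libraries, and dropped below HSP90B1 and CANX with UNC0642 and below CALR, HSP90B1 and CANX in the sh-G9a line with Dox.

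**Figure D2:**
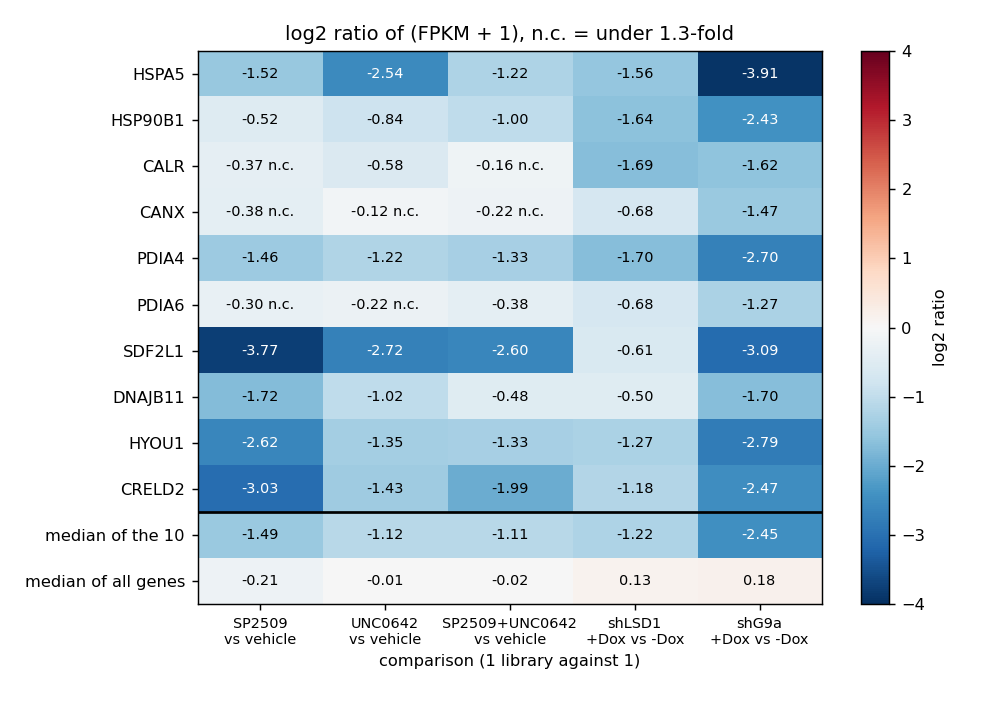
log2 ratio of (FPKM + 1) of treated over control for each gene and comparison, from blue (lower) to red (higher), with n.c. marking ratios under 1.3-fold, and the median of the 10 and of all genes below the line. Every cell of the 10 genes is below 0, from -0.12 for CANX with UNC0642 to -3.91 for HSPA5 in the sh-G9a line.

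The transcripts of the 10 genes made up 1.33% of all fragments with vehicle (95% exact binomial interval 1.32 to 1.33%). This share was 0.686% under SP2509, 0.590% under UNC0642 and 0.727% under the combination. In the sh-LSD1 line it was 1.37% without and 0.531% with Dox, and in the sh-G9a line 1.62% without and 0.294% with Dox. HSPA5 alone held 0.571% of the fragments with vehicle and 0.0400% in the sh-G9a line with Dox.

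In GRCh38, as the coordinates that accompany the values give it, HSPA5 (ENSG00000044574, chr9:125234853-125241330, minus strand), the HSP70 of the lumen, was at 1462 FPKM in vehicle, 510.9 under SP2509, 251.0 under UNC0642 and 627 under the combination. In the sh-LSD1 line it was at 1195 FPKM without and 404 with Dox, and in the sh-G9a line at 1551 without and 102 with Dox. The lowest of the 3 control libraries, at 1195 FPKM, was above the highest of the 5 treated libraries, at 627. Every member had such a gap, small for some. The share of all genes with one was not counted, and the 2 tables were normalized separately. The fall was 15.2-fold (14.8 to 15.5) in the sh-G9a line, 5.83-fold (5.73 to 5.92) with UNC0642, 2.96-fold (2.92 to 2.998) in the sh-LSD1 line, 2.86-fold (2.83 to 2.90) with SP2509 and 2.33-fold (2.30 to 2.36) with the combination. In rank of FPKM among all listed genes, HSPA5 was number 16 with vehicle and number 99 with UNC0642, and it went from number 20 to number 299 in the sh-G9a line. Its log2 ratio was number 11 from the lowest of 13244 genes with UNC0642 and number 20 of 13080 in the sh-G9a line, but number 508 of 13342 with SP2509.

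DNAJB11 (ENSG00000090520, chr3:186567403-186585800, plus strand), a J-domain cofactor that delivers unfolded proteins to BiP, was among the lowest of the 10, at 21.9 FPKM in vehicle, 5.96 under SP2509, 10.3 under UNC0642 and 15.5 under the combination. It was at 16.2 FPKM without and 11.2 with Dox in the sh-LSD1 line, and at 20.1 without and 5.50 with Dox in the sh-G9a line. Its fall was 3.68-fold (3.36 to 4.04) with SP2509 and 3.65-fold (3.31 to 4.02) in the sh-G9a line, but 1.42-fold (1.32 to 1.52) with the combination and 1.45-fold (1.34 to 1.57) in the sh-LSD1 line, where it was the least lowered of the 10.

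SDF2L1 (ENSG00000128228, chr22:21642261-21644298, plus strand), which forms a complex with DNAJB11 and keeps BiP clients from aggregating, was at 75.9 FPKM in vehicle, 4.65 under SP2509, 10.7 under UNC0642 and 11.7 under the combination. In the sh-LSD1 line it was at 80.8 FPKM without and 52.6 with Dox, and in the sh-G9a line at 120 without and 13.3 with Dox. It had the lowest log2 ratio of the 10 with each inhibitor treatment, at -3.77, -2.72 and -2.60, which was number 6 from the lowest of 13342 genes with SP2509 and number 7 of 13244 with UNC0642. Its fall with SP2509 was 16.3-fold, and with 91 fragments in that library it had the widest interval of all (13.2 to 20.4). In the sh-LSD1 line the fall was 1.53-fold (1.42 to 1.66), the second smallest there.

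HYOU1 (ENSG00000149428, chr11:119044189-119057202, minus strand), an HSP70-like protein that lets BiP exchange ADP for ATP, was at 56.1 FPKM in vehicle, 8.29 under SP2509, 21.4 under UNC0642 and 21.8 under the combination. It was at 55.5 FPKM without and 22.5 with Dox in the sh-LSD1 line, and at 70.1 without and 9.27 with Dox in the sh-G9a line. Over both separately normalized tables the highest treated library was at 22.5 FPKM and the lowest control at 55.5, a gap in the direction that every member had. The fall was 7.56-fold (7.12 to 8.03) in the sh-G9a line, 6.77-fold (6.35 to 7.21) with SP2509 and between 2.47-fold and 2.62-fold in the other 3 comparisons.

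HSP90B1 (ENSG00000166598, chr12:103930107-103953645, plus strand), the HSP90 of the lumen, was at 567 FPKM in vehicle, 396 under SP2509, 316 under UNC0642 and 283 under the combination. It was at 662 FPKM without and 211 with Dox in the sh-LSD1 line, and at 748 without and 138 with Dox in the sh-G9a line. Its fall was larger in the lines, at 3.13-fold (3.08 to 3.19) and 5.41-fold (5.30 to 5.52), than with the inhibitors, at 1.43-fold (1.41 to 1.45) with SP2509, 1.79-fold (1.76 to 1.82) with UNC0642 and 2.00-fold (1.97 to 2.04) with the combination. It was number 4349 from the lowest of 13342 genes with SP2509, well inside the bulk of that comparison.

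The lectin chaperones were the members with the most uncalled ratios, together with PDIA6. CALR (ENSG00000179218, chr19:12938578-12944489, plus strand), soluble in the lumen, was at 353 FPKM in vehicle, 273 under SP2509, 235 under UNC0642 and 316 under the combination. It was at 581 FPKM without and 180 with Dox in the sh-LSD1 line, and at 634 without and 206 with Dox in the sh-G9a line. It fell 3.24-fold (3.16 to 3.32) and 3.08-fold (3.01 to 3.15) in the 2 lines and 1.4999-fold (1.46 to 1.54) with UNC0642, and its ratios with SP2509 (1.29-fold lower) and the combination (1.12-fold lower) were under the call. CANX (ENSG00000127022, chr5:179678628-179730925, plus strand), its membrane-bound relative, was at 320 FPKM in vehicle, 246 under SP2509, 293 under UNC0642 and 275 under the combination. It was at 323 FPKM without and 201 with Dox in the sh-LSD1 line, and at 337 without and 121 with Dox in the sh-G9a line. CANX fell in the lines alone, 1.61-fold (1.58 to 1.64) and 2.79-fold (2.73 to 2.85), and its ratios with the inhibitors were 1.2995-fold lower with SP2509 (just under the call), 1.09-fold with UNC0642 and 1.16-fold with the combination.

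The 2 disulfide isomerases differed from each other in size of change. PDIA4 (ENSG00000155660, chr7:149003062-149028641, minus strand), which has an additional thioredoxin domain and associates with BiP, was at 229 FPKM in vehicle, 82.7 under SP2509, 98.1 under UNC0642 and 90.7 under the combination. It was at 309 FPKM without and 94.2 with Dox in the sh-LSD1 line, and at 388 without and 58.9 with Dox in the sh-G9a line. Its fall lay between 2.34-fold and 3.28-fold in 4 comparisons and was 6.59-fold (6.35 to 6.84) in the sh-G9a line, and in the sh-LSD1 line it was the most lowered of the 10. PDIA6 (ENSG00000143870, chr2:10783391-10837977, minus strand), which also interacts with IRE1, was at 104 FPKM in vehicle, 84.8 under SP2509, 89.4 under UNC0642 and 80.0 under the combination. It was at 127 FPKM without and 79.2 with Dox in the sh-LSD1 line, and at 141 without and 57.7 with Dox in the sh-G9a line. PDIA6 was 1.23-fold lower with SP2509 and 1.17-fold lower with UNC0642, both under the call, and fell 1.304-fold (1.26 to 1.35) with the combination, 1.61-fold (1.55 to 1.66) in the sh-LSD1 line and 2.44-fold (2.35 to 2.53) in the sh-G9a line.

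CRELD2 (ENSG00000184164, chr22:49918167-49927540, plus strand), an ER stress-inducible protein with EGF-like repeats, was at 21.2 FPKM in vehicle, 1.71 under SP2509, 7.25 under UNC0642 and 4.56 under the combination. It was at 30.6 FPKM without and 13.0 with Dox in the sh-LSD1 line, and at 35.4 without and 5.55 with Dox in the sh-G9a line. The fall was 12.4-fold (10.52 to 14.7) with SP2509, 6.38-fold (5.80 to 7.03) in the sh-G9a line, 4.64-fold (4.15 to 5.18) with the combination, 2.92-fold (2.67 to 3.20) with UNC0642 and 2.36-fold (2.20 to 2.52) in the sh-LSD1 line.

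HSPA5, HSP90B1, PDIA4, SDF2L1, DNAJB11, HYOU1 and CRELD2 were called lower in all 5 comparisons, as were 57 of the 11376 genes that passed the filter in all 5 (0.501%). CALR and PDIA6 were called lower in 3 and CANX in 2. For CALR (1.26 to 1.32) and CANX (1.28 to 1.32) with SP2509 and for PDIA6 with the combination (1.26 to 1.35), the counting interval of the fold reached across the 1.3-fold threshold, so these calls were not settled at this depth. Of the 7 genes with ERSE or ERSE-II in the searched window, 5 were called lower in all 5 comparisons, and of the 3 without, PDIA4 and DNAJB11 were. The order of the falls was not the same for the inhibitor and the hairpin of LSD1. With SP2509 the cofactors SDF2L1, HYOU1 and DNAJB11 and the stress-inducible CRELD2 had the 4 lowest log2 ratios, from -3.77 to -1.72, and HSP90B1, CANX, CALR and PDIA6 the 4 highest, from -0.52 to -0.30. In the sh-LSD1 line PDIA4, CALR, HSP90B1 and HSPA5 had the 4 lowest, from -1.70 to -1.56, and SDF2L1 and DNAJB11 the 2 highest, at -0.61 and -0.50. For G9a, HSPA5 and SDF2L1 had the 2 lowest log2 ratios with UNC0642 (-2.54 and -2.72) and in the sh-G9a line (-3.91 and -3.09), and PDIA6 and CANX the 2 highest in both. The difference between an inhibitor and a hairpin was not tested, and the inhibitor and knockdown values come from separate tables.

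**Figure D3:**
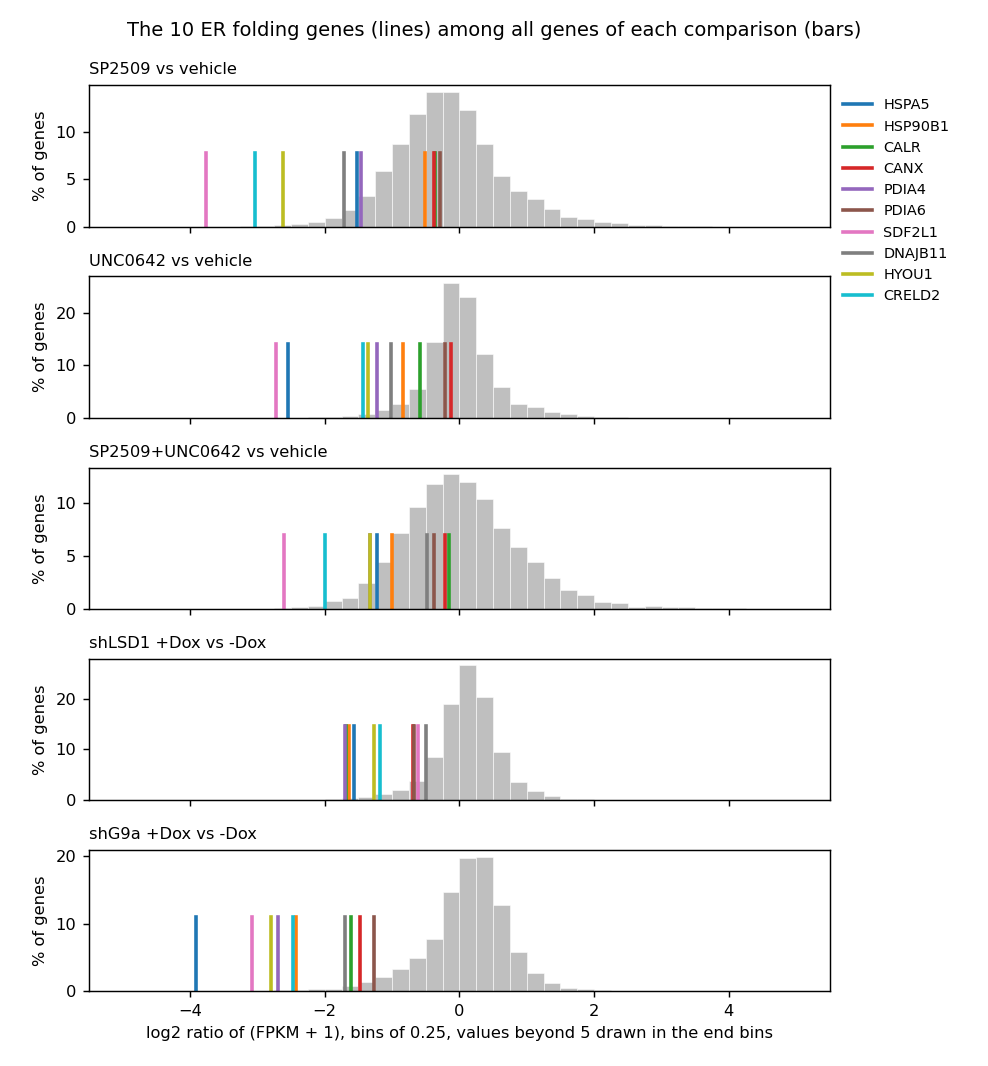
Distribution of the log2 ratio of (FPKM + 1) over all genes that passed the filter (grey bars, percent of genes in bins of 0.25) with the 10 ER folding genes as coloured lines, for each of the 5 comparisons. In the sh-G9a line all 10 lie at or below -1.27 while the median of all genes is 0.18, and with SP2509 HSP90B1, CALR, CANX and PDIA6 lie within the bulk of genes.

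On the log2 scale, the fall with the combination was smaller than the 2 single falls added together. The log2 ratio of the combination was above the sum of the 2 single log2 ratios for all 10 genes, by a median of 1.81, against 0.19 for all genes, of which 59.4% of 14801 were above their sum. For SDF2L1 the sum (-6.48) was lower than complete loss of the transcript could give with the pseudocount. For CRELD2 (-4.46) it was about as low as complete loss gives. These 2 genes could therefore hardly lie below their sums, and strongly lowered genes in general have less room to do so. With trimmed mean scaling the median was 1.497 and 8 of the 10 were above, all but CANX and PDIA6, and with ratios centred on the median 9 were, all but PDIA6. HSPA5 was 2.50-fold higher with the combination than with UNC0642 alone (627 against 251.0 FPKM) and 1.23-fold higher than with SP2509 alone. SDF2L1, DNAJB11, HYOU1 and CRELD2 were 2.52-fold, 2.60-fold, 2.63-fold and 2.67-fold higher with the combination than with SP2509. Relative to UNC0642, they were 1.095, 1.499, 1.02 and 0.630 times as high. HSP90B1 and PDIA6 were lowest with the combination, at 283 and 80.0 FPKM, close to their levels with UNC0642 (316 FPKM) and SP2509 (84.8 FPKM). All 4 libraries of this arm enter these ratios once, with the vehicle library shared, so its own error moves every single ratio together.

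**Figure D4:**
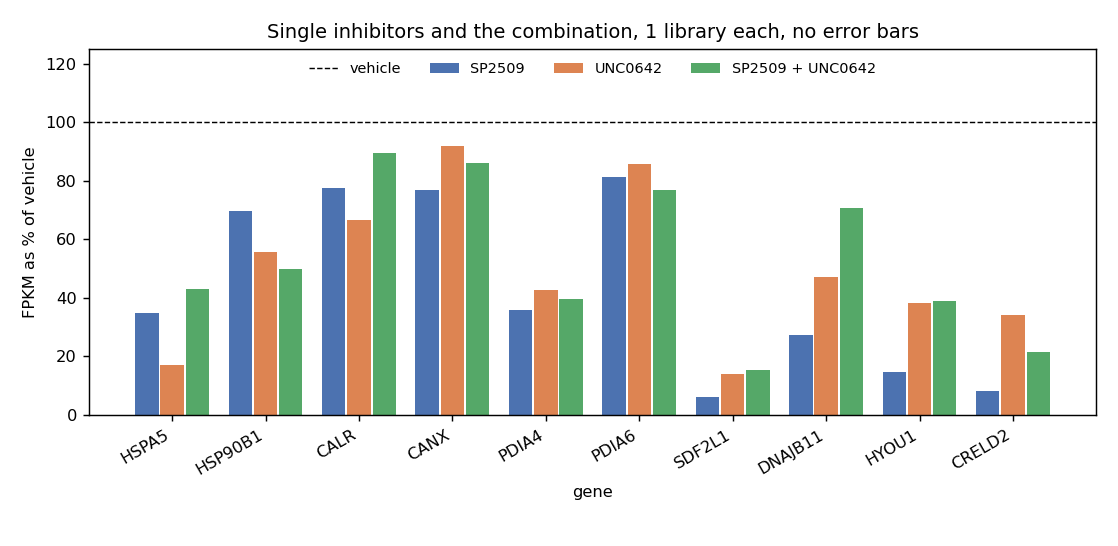
FPKM with SP2509, UNC0642 and the combination as a percentage of vehicle (bars from 0, 1 library each, no error bars) for the 10 genes, with the dashed line at vehicle. The combination bar is above the SP2509 bar for 8 of the 10 genes and above the UNC0642 bar for 5.

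The lines without Dox gave the only comparison of 2 libraries of 1 table that received neither inhibitor nor Dox. All 10 genes were at a higher level in the sh-G9a line than in the sh-LSD1 line, by 0.06 (CANX) to 0.57 (SDF2L1) on the log2 scale and by a median of 0.25, against 0.0050 for all genes. SDF2L1 (1.49-fold) was the one member past the call, where 3.04% of 12449 genes were called higher and 4.51% lower, and HSPA5 was 1.298-fold higher, just under it. This gap for SDF2L1 was nearly as large as its fall of 0.61 with Dox in the sh-LSD1 line, whereas the falls in the sh-G9a line were at least 1.27. The 2 lines carry different constructs, so this is not a replicate error.

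Other ER folding genes were taken as 57 genes from 6 lists (oxidoreductases, HSP70 cofactors, lectin-cycle enzymes, prolyl isomerases, other folding factors and KDEL receptors). They were called in both directions in each comparison, though mostly lower with SP2509 and in both lines. Of those that passed the filter, 25 of 50 were called lower and 3 higher with SP2509 (39.9% and 21% of all genes). With UNC0642, 10 were lower and 7 higher (16.9% and 18.2% of all genes). With the combination, 12 were lower and 16 higher (31.7% and 31.4% of all genes). The counts with UNC0642 and with the combination were thus near the background. In the sh-LSD1 line 16 of 51 were lower and 4 higher (12.3% and 24.8% of all genes). In the sh-G9a line 26 of 51 were lower and 5 higher (17.6% and 32.9% of all genes). With trimmed mean scaling these became 16 lower and 8 higher with SP2509, 21 and 3 in the sh-LSD1 line and 34 and 1 in the sh-G9a line. CLGN, a calnexin-like chaperone, and CRELD1, a relative of CRELD2, were called lower in all 5, and both were named after their values were seen. In the inhibitor arm CLGN was near the floor, at 1.16 FPKM in vehicle and at most 0.568 FPKM in a treated library. It passed the filter in that arm through vehicle alone, so its calls there rest on low values. CLGN went from 5.24 to 2.16 FPKM in the sh-LSD1 line and from 5.24 to 0.185 in the sh-G9a line. ERO1A, the oxidase that supplies disulfide bonds to the isomerases, went in opposite directions in the arms, from 38.95 FPKM with vehicle to 99.1, 107 and 87.9 with SP2509, UNC0642 and the combination, but from 151 to 40.4 in the sh-LSD1 line and from 137 to 15.9 in the sh-G9a line. DNAJC3, which restrains PERK and acts as a BiP cofactor, was at 34.6 FPKM in vehicle, 6.21 under SP2509, 8.03 under UNC0642 and 12.9 under the combination. PDIA3, the isomerase that works with CALR and CANX, fell from 169.9 to 71.8 FPKM in the sh-LSD1 line, where it was one of the 3 most lowered genes of these lists. It also fell in the sh-G9a line, from 183.6 to 63.1 FPKM, and was not called with any inhibitor. KDELR1 and KDELR2, the receptors that return lumenal proteins from the Golgi, were called lower in 0 comparisons, and KDELR2 was called higher with the combination (54.9 to 102.4 FPKM). KDELR3, another such receptor, was called higher with UNC0642 and with the combination (2.75 to 9.89 FPKM) and lower in the sh-G9a line.

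Chaperones of the same families that act outside the ER were called in both directions. Of 9 HSP70, HSP110 and HSP90 genes of the cytosol and mitochondria, 5 were called higher and 1 lower with UNC0642 (18.2% and 16.9% of all genes). With the combination, 4 were higher and 2 lower (31.4% and 31.7% of all genes). In the sh-G9a line 7 were higher and 1 lower (32.9% and 17.6% of all genes). In the sh-LSD1 line 2 were higher and 1 lower, near the background (24.8% and 12.3% of all genes). HSPA8, the constitutive cytosolic HSP70, was at 99.4 FPKM in vehicle, 66.8 under SP2509, 253 under UNC0642 and 262 under the combination. It was at 63.2 FPKM without and 127.5 with Dox in the sh-LSD1 line, and at 66.6 without and 279 with Dox in the sh-G9a line. It was thus higher where HSPA5 was lower in 4 comparisons, and called lower with SP2509 as HSPA5 was. HSP90AA1, the inducible cytosolic HSP90, was at 291 FPKM with vehicle and 461 with UNC0642, and rose from 83.4 to 226 in the sh-G9a line. It was called lower with SP2509 (209 FPKM) and was not called with the combination or in the sh-LSD1 line. HSPA9, the mitochondrial HSP70, was called lower in 4 comparisons, from 221 FPKM with vehicle to 108 with SP2509. HSPA1A and HSPA1B are near-identical copies that could exchange reads, and both were called higher with UNC0642, with the combination and in the sh-G9a line. With SP2509, 6 of the 9 were called lower and 0 higher (39.9% and 21% of all genes). With trimmed mean scaling 3 were lower and 2 higher, and in the sh-G9a line 4 of the 9 were higher under that scaling.

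**Figure D5:**
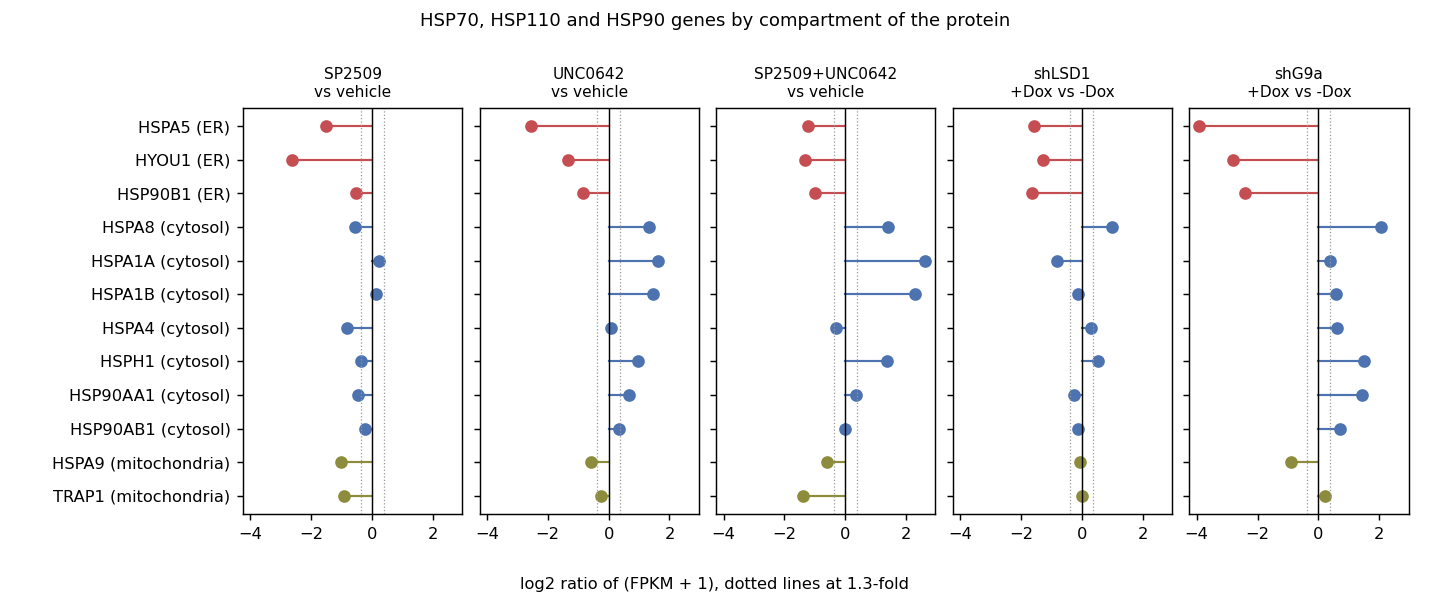
log2 ratio of (FPKM + 1) for HSP70, HSP110 and HSP90 genes by the compartment of the protein (red ER, blue cytosol, olive mitochondria) in the 5 comparisons, with dotted lines at 1.3-fold. The 3 ER genes are below the lower dotted line in all 5 panels, and HSPA8 is above the upper line in all panels except SP2509.

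The regulators of the UPR were a list that overlaps the genes the study itself measured, so it is no independent evidence. Of 7 genes, 6 were called lower with SP2509 (39.9% of all genes), 7 with UNC0642 (16.9%), 4 with the combination (31.7%), 1 in the sh-LSD1 line (12.3%) and 6 in the sh-G9a line (17.6%). One gene was called higher with the combination, namely ATF4, which encodes the transcription factor translated under PERK signalling and went from 255 to 360.1 FPKM, and one in the sh-LSD1 line, namely XBP1. XBP1, which encodes the transcription factor that IRE1 activates, was at 77.2 FPKM in vehicle, 38.5 under SP2509, 24.3 under UNC0642 and 39.7 under the combination, but rose from 61.4 to 86.2 FPKM with Dox in the sh-LSD1 line, where all 10 ER folding genes fell. That rise (0.48 on the log2 scale) was under the call with either scaling, which left 0 of the 7 higher there. In the sh-G9a line XBP1 fell from 68.6 to 29.0 FPKM. DDIT3 (CHOP), a stress-induced transcription factor, was called lower in all 5 comparisons, from 70.6 FPKM with vehicle to 17.3, 5.70 and 22.6 with the inhibitors, from 49.9 to 27.8 in the sh-LSD1 line and from 59.5 to 3.58 in the sh-G9a line. ATF6, which encodes the sensor that is cut to a transcription factor, was called lower in 4 comparisons and was level at 15.0 and 14.5 FPKM in the sh-LSD1 line.

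Among 3258 genes outside the 10 that reached 10 FPKM in each of the 3 control libraries, MANF, a secreted ER stress-inducible folding factor, had the 5 log2 ratios nearest to the medians of the 10, at a Euclidean distance of 0.84. SEL1L, a subunit of the ER-associated degradation complex, was next at 1.11. Of the 10 nearest genes, 2 were in the ER folding lists (MANF and DNAJC10). Their closeness to the medians is what chose them and is no result. The profile describes 5 ratios that share controls within the inhibitor arm.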

How the data were processed

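The authors sequenced 150-base read pairs, and per the labels and methods mapped them to the human genome (GRCh38, Ensembl release 87) and deposited FPKM values in 2 separate tables, of 31582 genes (inhibitors) and 28942 genes (knockdowns). The aligner, the counting tool, strand use and the treatment of reads shared by near-identical genes are not given in the sources used here. Groups came from the sample labels. The 10 members, the gene lists and the call rule were chosen with earlier results of these data known.

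Library totals were recovered from genes with 1 exon, whose FPKM values fall on whole fragments for 99.9% of values, and fragments per gene from the length that makes all its values whole. In 4 simulated libraries of 31578 genes drawn from the vehicle library, all 4 totals and the fragments of 96.6% of genes with at least 100 were recovered exactly, 198 of 200 genes changed 2-fold received the right call, and 644 of the 12597 left unchanged received one. These libraries held counting error only, without spread between cultures, and the changed genes were picked among those with many fragments. The counts are therefore not error rates of the calls in the real libraries. Depth limits precision to at most 21.9% of a ratio (95% Clopper-Pearson). Printed folds are ratios of FPKM, while log2 ratios and calls used a pseudocount of 1, which understates low genes, and the call needed a fold of at least 1.3 and an FPKM of at least 1 in either library. Genes named are all members, the chaperone and UPR lists, the 3 most raised and 3 most lowered called genes of the other ER lists per comparison, and the 10 nearest profiles, and CLGN, CRELD1, KDELR1, KDELR2 and the genes with an element outside the 10 were named after their values were seen. Python 3.11.15, scipy 1.17.1, pandas 2.3.3 and matplotlib 3.10.9 were used. Protein sequences were not analysed here. The alternatives are given with the limits.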

Additional observations from a re-analysis of the deposited data

Results flagged for a closer look

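Dox moved 4 of the 46 genes examined past the call in opposite directions in the 2 lines, and 0 of the 10 ER folding genes. HSPA1A had a log2 ratio of -0.81 in the sh-LSD1 line and 0.39 in the sh-G9a line. XBP1 had 0.48 and -1.22, and DNAJB9, a J-domain cofactor of BiP, 0.49 and -1.54. KDM1A, the target of the sh-LSD1 hairpin, had -1.89 and 0.43. With ratios centred on the median or with trimmed mean scaling, 0 of the 4 kept opposite calls, since XBP1 and DNAJB9 lost the call in the sh-LSD1 line and HSPA1A and KDM1A in the sh-G9a line. The differences between the lines were not tested, since each condition has 1 library.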

How the results depend on the processing

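No paired analysis was possible because each condition has 1 library, and for the same reason leaving out a replicate was not possible. The alternatives were pseudocounts of 0.1 and 0.01, no filter or an FPKM of at least 5, folds of 1.5 and 2, centring and trimmed mean scaling, an added exact binomial p under 0.05, protein-coding genes only and, for the lines, the mean of both uninduced libraries as control. The scaling of the other gene lists, of the combination and of the opposite calls was added after the data were seen. Of 104 counts of members called, 103 stayed within 1.5 times the main count, and at a fold of 2 the sh-LSD1 line had 6 called lower instead of 10. These counts include the members called higher, which were 0 in each main comparison. Of 470 single-gene values, 453 kept their direction and call and 16 lost the call. The filters and the binomial p could not change a member's call. All members passed both filters, and all their counting intervals excluded equal levels. The PDIA6 ratio with SP2509, uncalled throughout, changed sign to 0.0032 with trimmed mean scaling. Of 52 medians of the 10, 41 moved by less than counting error and all kept their direction. The filters, the fold thresholds, the binomial p and the protein-coding set do not enter these medians, so such alternatives could not move them. Only the pseudocounts, the scalings and the mean control could. Centring moved the median to -1.39 with SP2509, -1.34 in the sh-LSD1 line and -2.60 in the sh-G9a line. Trimmed mean scaling moved these to -1.19, -1.36 and -2.68. A pseudocount of 0.01 gave -1.27 in the sh-LSD1 line and -2.55 in the sh-G9a line, a pseudocount of 0.1 gave -2.54 in the latter, and the mean control gave -1.36 and -2.36. These shifts follow from how each alternative is built. Depth left 3 calls near 1.3-fold unsettled (CALR and CANX with SP2509, PDIA6 with the combination), and without replicates the spread between cultures is unknown.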

Other observations

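Outside the 10 ER folding genes, 18 genes listed in both tables held ERSE or ERSE-II in the 250 bases before their start, and 17 or 18 of them passed the filter in each comparison. This set was looked at after the data were seen. Of these, 7 were called lower and 4 higher with SP2509, 8 and 2 with UNC0642, 7 and 3 with the combination, 4 and 2 in the sh-LSD1 line, and 8 and 1 in the sh-G9a line. Over all genes, the shares called lower and higher were 39.9% and 21% with SP2509, 16.9% and 18.2% with UNC0642, 31.7% and 31.4% with the combination, 12.3% and 24.8% in the sh-LSD1 line, and 17.6% and 32.9% in the sh-G9a line, so the count with SP2509 was near its background. HERPUD1, an ER membrane component of protein degradation, had log2 ratios of -2.87 with SP2509, -3.79 with UNC0642, -1.54 with the combination and -2.96 in the sh-G9a line, and -0.36 (under the call) in the sh-LSD1 line. FICD, an ER enzyme that modifies BiP, had -1.98, -1.68, -0.78 and -0.87 in the same order and 0.19 (under the call) in the sh-LSD1 line. GYS1, a glycogen synthase, had 1.15 with SP2509 and 0.77 with UNC0642 but -1.19 in the sh-LSD1 line and -1.17 in the sh-G9a line.

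ERO1A and QSOX1, 2 oxidases that make disulfide bonds, rose with each inhibitor treatment and fell in both lines with Dox. QSOX1 was at 12.6 FPKM in vehicle, 31.4 under SP2509, 29.7 under UNC0642 and 54.4 under the combination. It went from 38.8 to 27.4 FPKM in the sh-LSD1 line and from 35.1 to 12.3 in the sh-G9a line.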
